A study of Mus musculus with 6 samples.

Results

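The complement and coagulation cascades of the blood were followed in liver RNA through 48 genes, picked by symbol among the 52459 genes of the count table. Of these, 26 belong to complement and 22 to coagulation and fibrinolysis. All 48 passed the filter on low counts and were among the 17032 genes tested. Of the 48, 37 are products that hepatocytes are known to make, 6 are genes of macrophages and other leukocytes, and 5 come from other or several cell types. These assignments are general knowledge and were not read from the livers. Gene positions are those of GENCODE on GRCm38.

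RNA-Seq was performed on whole livers of 6 male C57BL6J mice, F1 animals carrying Alb-Cre and Cas9, of which 3 received a control guide (sgCtrl, mice 5.1, 7.1 and 7.2) and 3 a guide against Prdx2 (sgPrdx2, mice 1.1, 1.3 and 3.2). The guides were given intravenously in AAV8 vectors at 4 to 5 weeks of age. All 6 animals, controls included, were injected 3 weeks later with diethylnitrosamine (DEN, 100 mg/kg), which damages DNA in the liver, and were fed, after 1 more week, a choline-deficient high-fat diet (CDAHFD) for 6 months, and were 8 months old. The albumin promoter of the Cre was used to direct Cas9 to hepatocytes, and editing in other liver cells was not measured here. Hepatocytes that the vector missed keep the gene intact.

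Complement is a set of plasma proteins, many of them proteases, that mark microbes and damaged cells. The classical pathway starts from antibodies bound by C1q, the lectin pathway from sugars, and the alternative pathway from C3 itself, and all lead to cleavage of C3 and C5 and to the terminal proteins that form a pore in membranes. Coagulation is a second protease cascade, in which prothrombin is activated to thrombin, thrombin turns fibrinogen into fibrin, and plasmin dissolves the clot. Hepatocytes secrete most of these plasma proteins, whereas C1q, properdin and the receptors for the fragments C3a and C5a are mainly made by macrophages and other leukocytes.

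Total counts ranged from 37462102 to 56865293 per liver, and the smallest amount taken as detected, 3 counts, stood for 0.0555 to 0.0921 CPM (counts scaled to a common library size), a limit that covers counting error only. CPM are normalized here by TMM, a scaling that assumes that most genes do not differ, and its factors were 1.12 to 1.17 for sgCtrl livers, against 0.805 to 0.951 for sgPrdx2. Prdx2 itself was at 109, 117 and 132 CPM in the sgCtrl livers and 99.0, 112 and 149 CPM in the sgPrdx2 livers, a log2 fold change of 0.0082 ± 0.18 (SE, n = 3 and 3, adjusted p = 0.983). A count over the whole gene reads neither the edited sequence nor the protein, so it checks no label. Albumin took 6.61 to 7.01% of the counts of sgCtrl livers, against 9.28 to 11.3% for sgPrdx2, and its log2 fold change was 0.97 ± 0.20 (SE, n = 3 and 3, adjusted p = 0.0472).

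In sgPrdx2 livers, 9 of the 48 genes rose and 2 fell at an adjusted p under 0.05 (edgeR quasi-likelihood test, Benjamini-Hochberg over 17032 genes). Among all genes tested, 1.79% rose, 1.54% fell and 3.33% did either. The genes that rose were the lectin pathway protease Masp2, the terminal component C8g, the clotting proteases F7, F10 and F11, prekallikrein (Klkb1), the fibrinogen beta chain (Fgb), the anticoagulant protein C (Proc) and histidine-rich glycoprotein (Hrg). The genes that fell were C3ar1 and C5ar1, the receptors for C3a and C5a. The other 37 did not pass the test. The log2 fold change was above 0 for 40 of the 48 genes and for 48.3% of all genes, and its median was 0.68 over the 48 genes and -0.02 over all. These values are relative to TMM scaling. When the livers were scaled to hepatocyte markers instead, 17 of the 48 were above 0 and none rose. In 29 genes every sgPrdx2 liver lay above every sgCtrl liver, against 16.7% of all genes, in 3 every one lay below, against 17.5%, and in 16 the groups overlapped.

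**Figure D1:**
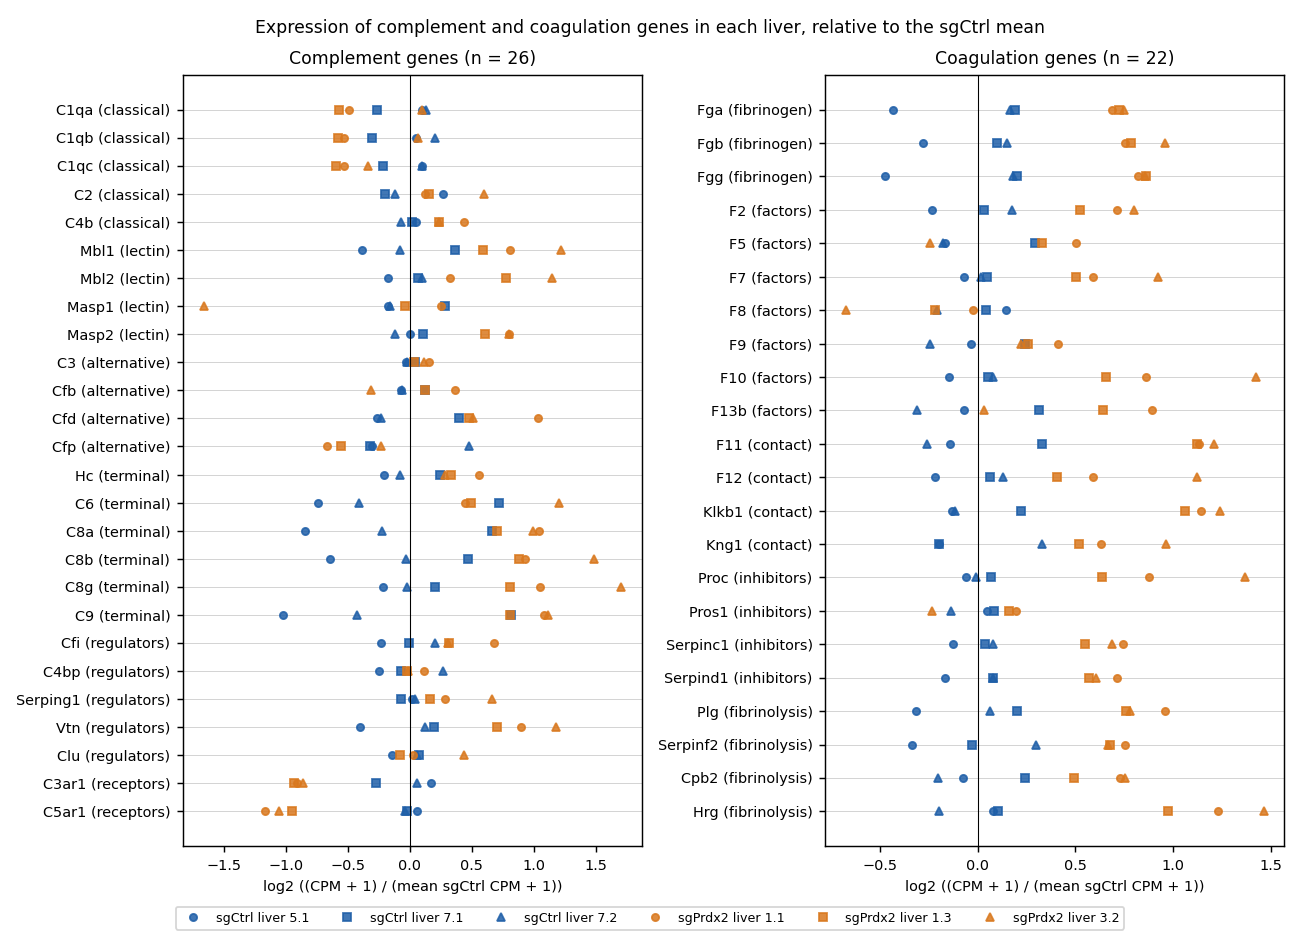
Level of each of the 48 genes in each liver, as log2 of (CPM + 1) over (mean sgCtrl CPM + 1), with sgCtrl livers in blue and sgPrdx2 livers in orange and the pathway step in brackets. Of the coagulation genes, 17 of 22 had all 3 sgPrdx2 livers above all 3 sgCtrl livers, as did 12 of 26 complement genes under TMM scaling, while C1qc, C3ar1 and C5ar1 had them below.

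The classical pathway genes did not move as one group. None of its 5 genes passed the test, with 2 above 0, 3 below and a median log2 fold change of -0.29. The gene with the smallest p was C1qc, one chain of the C1q molecule that recognizes bound antibodies, at 329.5, 265 and 331 CPM in sgCtrl livers 5.1, 7.1 and 7.2 and 214, 204 and 244 CPM in sgPrdx2 livers 1.1, 1.3 and 3.2. The groups did not overlap, with the lowest sgCtrl liver only slightly above the highest sgPrdx2 liver, and the log2 fold change was -0.48 ± 0.15 (SE, n = 3 and 3, adjusted p = 0.112). The other chains, C1qa and C1qb, had log2 fold changes of -0.29 and -0.32, and in both sgPrdx2 liver 3.2 lay within the sgCtrl range while livers 1.1 and 1.3 lay below it. C2 and C4b, the hepatocyte-made components that C1 cleaves, both had a log2 fold change of 0.31 (-0.50 and -0.47 with scaling to hepatocyte markers), and only C4b had groups that did not overlap. Counts of C2 are uncertain, since 58% of its 50-base stretches also lie in the readthrough gene Gm20547, and C4b shares 35.2% with its paralog C4a.

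In the lectin pathway, Masp2 (chr4:148602554-148615499, plus strand), the protease that mannose-binding lectins activate to cleave C4 and C2, was at 145, 156 and 134 CPM in sgCtrl livers 5.1, 7.1 and 7.2 and 254, 221 and 253 CPM in sgPrdx2 livers 1.1, 1.3 and 3.2. Every sgPrdx2 liver was well above every sgCtrl liver, and Masp2 rose 1.67-fold, with a log2 fold change of 0.74 ± 0.14 (SE, n = 3 and 3, adjusted p = 0.0409). Exons of Masp2 overlap those of Tardbp on the other strand by 1817 bases, and whether the counting used strand is not stated; Tardbp had a log2 fold change of -0.21. The mannose-binding lectins themselves, Mbl1 and Mbl2, had log2 fold changes of 0.90 and 0.79 with adjusted p of 0.0746 and 0.0797, and their groups did not overlap. Masp1, the partner protease, was at 38.1, 52.8 and 38.7 CPM in the sgCtrl livers and 51.8, 42.1 and 12.99 CPM in the sgPrdx2 livers. Its low value in sgPrdx2 liver 3.2 set its direction, since the log2 fold change was -0.28 with that liver and 0.13 without it.

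The alternative pathway held the most abundant gene of the 48 and the rarest, and none of its 4 genes passed the test. C3, the protein on which all pathways meet, was at 9245, 9714 and 9298 CPM in sgCtrl livers 5.1, 7.1 and 7.2 and 10486, 9643 and 10220.3 CPM in sgPrdx2 livers 1.1, 1.3 and 3.2. The groups overlapped within a narrow band and the log2 fold change was 0.10 ± 0.15 (SE, n = 3 and 3, adjusted p = 0.703), or -0.67 when the livers were scaled to hepatocyte markers. Factor B (Cfb), the protease that joins C3b to form the convertase, had a log2 fold change of 0.098 and only 6.60 to 7.72 CPM in sgCtrl livers. Its level is uncertain, since 81.4% of its stretches are shared with Gm20547, which held 0 counts in every liver, and how shared reads were counted is not stated. Factor D (Cfd), the protease that cleaves factor B and that fat cells secrete, had the smallest p, at 0, 0.578 and 0.0190 CPM in sgCtrl livers 5.1, 7.1 and 7.2 and 1.46, 0.666 and 0.706 CPM in sgPrdx2 livers 1.1, 1.3 and 3.2. No read was counted in sgCtrl liver 5.1, sgCtrl liver 7.2 was under the 3-count limit, and the adjusted p was 0.215, so that no fold change is given. Properdin (Cfp), which stabilizes the convertase and is made by leukocytes, had a log2 fold change of -0.49, with the groups overlapping. Its value rests partly on sgCtrl liver 7.2, and was -0.16 without it.

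All 6 terminal pathway genes had log2 fold changes above 0, with a median of 0.97, and 1 passed the test. This was C8g (chr2:25498651-25501719, minus strand), the gamma chain of the C8 pore component, at 138, 185 and 158 CPM in sgCtrl livers 5.1, 7.1 and 7.2 and 334, 281 and 525 CPM in sgPrdx2 livers 1.1, 1.3 and 3.2. The sgPrdx2 livers were all above the sgCtrl livers but spread widely, with liver 3.2 highest, and C8g rose 2.37-fold, a log2 fold change of 1.24 ± 0.25 (SE, n = 3 and 3, adjusted p = 0.0459). The alpha and beta chains, C8a and C8b, which are encoded side by side on chromosome 4, had log2 fold changes of 0.92 and 1.14 with adjusted p of 0.157 and 0.0728. For C9, the subunit that polymerizes into the pore, the livers were at 103, 374 and 157 CPM in the sgCtrl livers and 449, 372 and 459 CPM in the sgPrdx2 livers. The groups overlapped, with sgCtrl liver 7.1 at the level of sgPrdx2 liver 1.3, and the log2 fold change of 1.01 became 1.71 without liver 7.1 and 0.68 without liver 5.1. C6 spread in the same manner, with a log2 fold change of 0.76, 1.34 without liver 7.1 and 0.50 without liver 5.1. Hc, which encodes C5, had a log2 fold change of 0.40, with sgPrdx2 liver 3.2 just above sgCtrl liver 7.1.

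None of the 5 regulators passed the test, and all had log2 fold changes above 0, with a median of 0.39. Vitronectin (Vtn), which binds the forming pore and keeps it from membranes, had the smallest p, at 1274, 1926 and 1832 CPM in sgCtrl livers 5.1, 7.1 and 7.2 and 3132, 2726 and 3809 CPM in sgPrdx2 livers 1.1, 1.3 and 3.2. Its groups did not overlap, yet the adjusted p of 0.057 stood just outside the threshold, with a log2 fold change of 0.94. Factor I (Cfi), the protease that inactivates C3b, had a log2 fold change of 0.44, and C1 inhibitor (Serping1), which blocks C1 and kallikrein, one of 0.39, both without overlap of the groups. C4b-binding protein (C4bp) and clusterin (Clu), another inhibitor of the pore, had log2 fold changes of 0.026 and 0.14 with overlapping groups.

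Both receptors fell. C3ar1 (chr6:122847138-122856161, minus strand), the receptor through which C3a acts on macrophages, was at 80.1, 58.5 and 73.8 CPM in sgCtrl livers 5.1, 7.1 and 7.2 and 37.2, 36.7 and 38.6 CPM in sgPrdx2 livers 1.1, 1.3 and 3.2. The sgPrdx2 livers lay close to each other and below every sgCtrl liver, and the log2 fold change was -0.92 ± 0.15 (SE, n = 3 and 3, adjusted p = 0.0358). C5ar1 (chr7:16246743-16259540, minus strand), the receptor that draws neutrophils and macrophages toward C5a, was at 22.4, 21.1 and 20.8 CPM in sgCtrl livers 5.1, 7.1 and 7.2 and 8.98, 10.6 and 9.80 CPM in sgPrdx2 livers 1.1, 1.3 and 3.2. Both groups were tight and far apart, C5ar1 had the smallest p of the 48 genes, and its log2 fold change was -1.13 ± 0.12 (SE, n = 3 and 3, adjusted p = 0.0313).

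The genes of the 3 fibrinogen chains, Fga, Fgb and Fgg, lie next to each other on chromosome 3 and had similar log2 fold changes. Fgb (chr3:83040141-83049863, minus strand) was at 2145, 2787 and 2887 CPM in sgCtrl livers 5.1, 7.1 and 7.2 and 4402, 4487 and 5058 CPM in sgPrdx2 livers 1.1, 1.3 and 3.2. No sgPrdx2 liver came near the sgCtrl range, and Fgb rose 1.78-fold, a log2 fold change of 0.83 ± 0.18 (SE, n = 3 and 3, adjusted p = 0.0491), a call that was lost, at an adjusted p of 0.0512, when each liver had to hold at least 10 counts. Fga and Fgg had log2 fold changes of 0.72 and 0.85, but adjusted p of 0.0864 and 0.065. In all 3 chains sgCtrl liver 5.1 was the lowest liver, and the groups did not overlap. Summed over the chains, the livers were at 5349, 7788 and 7811 CPM in sgCtrl and 11714, 11991 and 12633 CPM in sgPrdx2.

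Because the 3 neighbouring genes had similar fold changes, their promoters are shown, from RefSeq on GRCm38.p6, 5′ to 3′ on the strand of the gene, starting 250 bases before the annotated start. Fga is at chr3:83025903-83026075 on the plus strand, cut short at base 78 before its start where a GENCODE exon begins, Fgb at chr3:83049894-83050113 on the minus strand and Fgg at chr3:83007474-83007693 on the plus strand, both to base 31 before the start. Capitals mark letters that match the core of STAT sites (TTCNNNGAA) or of C/EBP sites (TTGCNNAA), searched on both strands.
Fga: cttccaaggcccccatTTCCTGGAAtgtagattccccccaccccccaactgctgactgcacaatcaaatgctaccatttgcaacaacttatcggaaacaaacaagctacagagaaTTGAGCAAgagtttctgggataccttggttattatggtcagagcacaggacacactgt
Fgb: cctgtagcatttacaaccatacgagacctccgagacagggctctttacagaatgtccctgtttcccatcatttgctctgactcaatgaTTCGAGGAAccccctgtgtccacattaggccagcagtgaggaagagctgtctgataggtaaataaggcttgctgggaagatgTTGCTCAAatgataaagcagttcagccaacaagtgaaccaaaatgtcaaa
Fgg: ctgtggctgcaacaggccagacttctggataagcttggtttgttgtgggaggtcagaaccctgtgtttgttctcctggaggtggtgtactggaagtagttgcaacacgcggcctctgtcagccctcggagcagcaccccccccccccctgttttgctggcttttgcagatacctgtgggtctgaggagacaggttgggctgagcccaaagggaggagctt
The windows of Fga and Fgb held both sets of letters and that of Fgg held neither. Over windows of 220 bases for all 32851 promoters of the table, 6.27% held the STAT letters, 8.78% the C/EBP letters and 0.584% both. The HNF1 letters GTTAAT were found in 5.82%. Of the 37 hepatocyte-made genes, 29 had a promoter in the table, of which 5 held the STAT, 6 the C/EBP and 7 the HNF1 letters. A match of letters is a description, not a binding site, and the lack of one says nothing about the factor.

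Of the 7 clotting proteases and cofactors, 2 rose, against 1.79% of all genes, and none fell. F10 (chr8:13037308-13056676, plus strand), the protease that activates prothrombin, was at 277, 319 and 324 CPM in sgCtrl livers 5.1, 7.1 and 7.2 and 558, 484 and 826 CPM in sgPrdx2 livers 1.1, 1.3 and 3.2. All sgPrdx2 livers were higher than all sgCtrl livers, liver 3.2 most of all, and F10 rose 2.03-fold, a log2 fold change of 1.02 ± 0.22 (SE, n = 3 and 3, adjusted p = 0.0491). F7 (chr8:13026034-13035809, plus strand), which starts clotting together with tissue factor and whose gene lies beside F10, was at 54.7, 59.5 and 58.2 CPM in sgCtrl livers 5.1, 7.1 and 7.2 and 87.1, 81.8 and 110.0 CPM in sgPrdx2 livers 1.1, 1.3 and 3.2. The sgCtrl livers were nearly alike and all below the sgPrdx2 livers, and F7 rose 1.62-fold, a log2 fold change of 0.69 ± 0.15 (SE, n = 3 and 3, adjusted p = 0.0494). Prothrombin (F2) had a log2 fold change of 0.68 without overlap and with an adjusted p of 0.0671. F9, the protease missing in haemophilia B, had a log2 fold change of 0.30, F5, the cofactor of F10, one of 0.23, and F13b, the carrier subunit of the fibrin cross-linking enzyme, one of 0.57, each with overlapping groups. F8, the cofactor of F9 and a product of endothelial cells, was the one coagulation gene with a log2 fold change below 0, of -0.30, also with overlap.

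The contact system, which begins clotting on charged surfaces and releases bradykinin, had 2 of 4 genes that rose, against 1.79% of all genes. In all 4 the sgPrdx2 livers lay above the sgCtrl livers, against 16.7% of all genes. Klkb1 (chr8:45266689-45294859, minus strand), the precursor of the kallikrein that frees bradykinin, was at 75.8, 97.0 and 76.4 CPM in sgCtrl livers 5.1, 7.1 and 7.2 and 184, 175 and 198 CPM in sgPrdx2 livers 1.1, 1.3 and 3.2. The gap between the groups was wide, and Klkb1 rose 2.23-fold, a log2 fold change of 1.16 ± 0.15 (SE, n = 3 and 3, adjusted p = 0.0313). F11 (chr8:45241174-45262031, minus strand), a protease that activates F9, whose gene lies beside Klkb1, was at 42.0, 58.6 and 38.5 CPM in sgCtrl livers 5.1, 7.1 and 7.2 and 103, 102 and 109 CPM in sgPrdx2 livers 1.1, 1.3 and 3.2. The sgPrdx2 livers were nearly alike and above all sgCtrl livers, and F11 rose 2.25-fold, a log2 fold change of 1.17 ± 0.18 (SE, n = 3 and 3, adjusted p = 0.0358). F12, which activates F11, had a log2 fold change of 0.74 and kininogen (Kng1), from which bradykinin is cut, one of 0.72, with adjusted p of 0.0924 and 0.0951. Of the 50-base stretches of Klkb1, 42.7% are shared with other genes, chiefly Gm45753, which held at most 1 count per liver, and Kng1 shares 18% with Kng2.

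Among the 4 coagulation inhibitors, Proc rose. Protein C, which inactivates F5 and F8 once thrombin on endothelium activates it, was at 428, 469 and 443 CPM in sgCtrl livers 5.1, 7.1 and 7.2 and 821, 695 and 1154 CPM in sgPrdx2 livers 1.1, 1.3 and 3.2. The sgCtrl livers were close together and all sgPrdx2 livers lay above them, and Proc rose 1.99-fold, a log2 fold change of 0.99 ± 0.20 (SE, n = 3 and 3, adjusted p = 0.0471). Antithrombin (Serpinc1) and heparin cofactor II (Serpind1), which inhibit thrombin, had log2 fold changes of 0.66 and 0.63 without overlap, with adjusted p of 0.0554 and 0.0555. Exons of Serpinc1 overlap those of Zbtb37 on the other strand by 2942 bases. Protein S (Pros1), the cofactor of protein C, had a log2 fold change of 0.056, with the groups overlapping.

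In the 4 genes of fibrinolysis the sgPrdx2 livers lay above the sgCtrl livers, against 16.7% of all genes, and 1 of them rose, against 1.79%. Hrg (chr16:22951072-22961656, plus strand), a plasma protein that binds plasminogen and heparin, was at 646, 657 and 533 CPM in sgCtrl livers 5.1, 7.1 and 7.2 and 1436, 1205 and 1688 CPM in sgPrdx2 livers 1.1, 1.3 and 3.2. The lowest sgPrdx2 liver was far above the highest sgCtrl liver, and Hrg rose 2.36-fold, a log2 fold change of 1.24 ± 0.18 (SE, n = 3 and 3, adjusted p = 0.0355). Plasminogen (Plg), the precursor of plasmin, had a log2 fold change of 0.84 with an adjusted p of 0.0504, just above the threshold, which it passed with RLE and upper-quartile normalization. The plasmin inhibitor Serpinf2 and the carboxypeptidase Cpb2, which both slow clot lysis, had log2 fold changes of 0.70 and 0.67, with adjusted p of 0.0752 and 0.066.

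**Figure D2:**
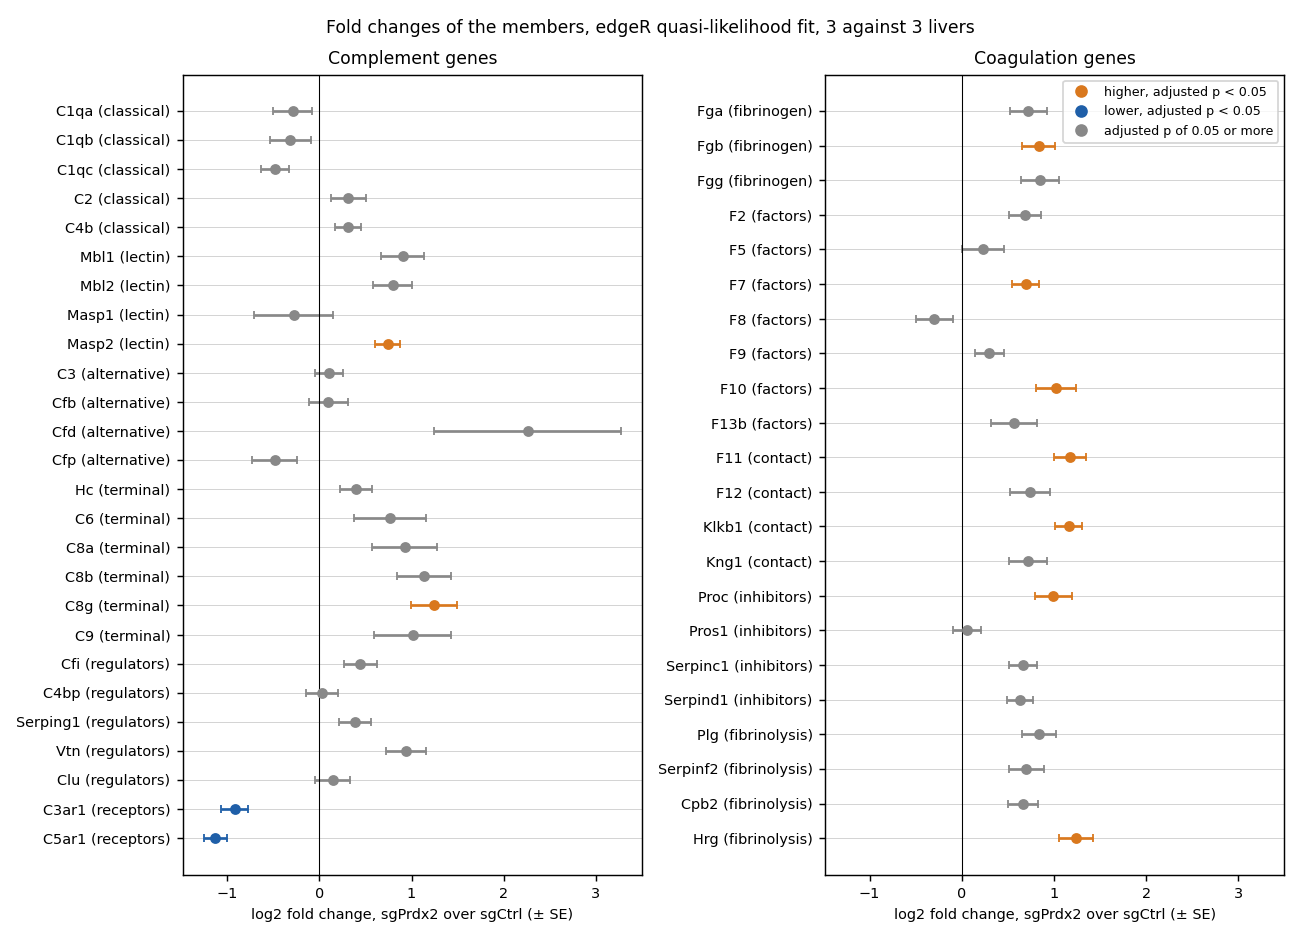
Log2 fold change of each gene, sgPrdx2 over sgCtrl livers, with its standard error (edgeR quasi-likelihood fit, 3 livers against 3), orange for the 9 genes that rose, blue for the 2 that fell and grey for the 37 that did not pass the test. The coagulation genes run from -0.30 to 1.24 with a median of 0.71 under TMM scaling, while complement genes run from C5ar1 at -1.13 to C8g at 1.24, with Cfd, which is near the detection limit, beyond.

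Complement and coagulation were then set side by side. Of 26 complement genes, 2 rose, 2 fell, 19 had a log2 fold change above 0 and the median was 0.35. Of 22 coagulation genes, 7 rose, none fell, 21 were above 0 and the median was 0.71. Among all genes, 1.79% rose and 1.54% fell. The complement genes together took 1.96 to 2.21% of all CPM in sgCtrl livers, against 2.30 to 2.77% in sgPrdx2, and the coagulation genes 1.38 to 1.81% and 2.65 to 3.01%. All 6 leukocyte genes belong to complement, and their part in the difference of the medians was not tested. Among hepatocyte-made genes only, the medians were 0.74 over 17 complement genes and 0.72 over 20 coagulation genes. Scaled to hepatocyte markers, the medians of all complement and all coagulation genes were -0.43 and -0.050. Of the hepatocyte-made genes, 2 and 7 rose under TMM. In 10 and 17 of them every sgPrdx2 liver lay above every sgCtrl liver, against 16.7% of all genes. With scaling to hepatocyte markers, 5 hepatocyte-made complement genes and 0 hepatocyte-made coagulation genes fell, against 64.6% of all genes. No test was made of a difference between these classes.

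The hepatocyte-made complement genes had log2 fold changes from -0.28 to 1.24, and the hepatocyte-made coagulation genes from 0.23 to 1.24. C3, Cfb, C4bp, C2, C4b and Masp1 had log2 fold changes between -0.28 and 0.31, whereas C8b, C8g and C9 exceeded 1. Among coagulation genes, F5 and F9 were lowest, with log2 fold changes of 0.23 and 0.30. The 7 members known as acute phase proteins, which the liver secretes more of in inflammation, were C3, C4b, C9, Cfb and the fibrinogen chains, and their log2 fold changes ran from 0.098 to 1.01 with a median of 0.72. Of the 6 vitamin K-dependent proteins, F7, F10 and Proc rose, while F2, F9 and Pros1 had log2 fold changes of 0.68, 0.30 and 0.056.

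Levels per kilobase of exon allow a rough comparison of genes within the same livers. The length is that of all annotated exons of a gene joined, which can exceed that of its transcripts, so ranks depend on the annotation. C3 stood highest in sgCtrl livers at 1831 CPM per kb, followed by clusterin at 1133. Close to each other came Fga at 885, Vtn at 826, Fgg at 818 and Fgb at 684. At the low end were Cfd at 0.216, F8 at 1.53 and Cfb at 2.48 CPM per kb. The place of Cfb is uncertain, since 81.4% of its stretches are shared with Gm20547 and reads there may not have been counted. In sgPrdx2 livers, Vtn reached 1588, Fgg 1472, Fga 1456 and Fgb 1220.2 CPM per kb, next to clusterin at 1251 and C3 at 1967. The receptors were scarce, C3ar1 at 16.4 and C5ar1 at 8.34 CPM per kb in sgCtrl livers.

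Under TMM scaling, the medians of hepatocyte products and leukocyte genes lay on opposite sides of 0. With scaling to hepatocyte markers both medians moved down, to -0.038 for hepatocyte products and -1.26 for leukocyte genes, and stayed apart. Of the 37 hepatocyte-made genes, 36 were above 0, 9 rose, none fell, and the median log2 fold change was 0.72. Their sum was 27488, 33559 and 32952 CPM in sgCtrl livers 5.1, 7.1 and 7.2 and 47378, 43752 and 49749 CPM in sgPrdx2 livers 1.1, 1.3 and 3.2. Of the 6 leukocyte genes, all were below 0, 2 fell, and the median was -0.48. Their sum was 1273, 1008 and 1352 CPM in sgCtrl and 824, 796 and 1139 CPM in sgPrdx2 livers. The hepatocyte sums did not overlap between the groups and the leukocyte sums did, with sgPrdx2 liver 3.2 above sgCtrl liver 7.1. The 5 genes of other or several sources, Cfd, Serping1, Clu, F8 and Pros1, had a median of 0.14 and none passed the test.

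Markers of cell types were measured in the same livers. All 14 hepatocyte markers were above 0, with a median log2 fold change of 0.78, 6 rose, and their summed share of CPM was 8.60 to 9.18% in sgCtrl livers, against 14.3 to 19.1% in sgPrdx2. All 11 macrophage markers tested were below 0, with a median of -0.43 and 1 that fell, and their sum was 3292 to 3699 CPM in sgCtrl livers, against 2286 to 3005 CPM in sgPrdx2. Of 9 general leukocyte markers, 3 fell, the median was -0.32, and the sum was 570.4 to 702 CPM in sgCtrl livers, against 346 to 394 CPM in sgPrdx2. The medians of 8 endothelial, 8 stellate cell and 6 cholangiocyte markers were -0.56, -0.49 and -0.41, with 1, 0 and 0 that fell. Their sums in sgCtrl livers were 246 to 270.5, 1800.3 to 2055 and 1629.8 to 1858 CPM, and in sgPrdx2 livers 168 to 251, 1321 to 1394 and 1217 to 1393 CPM. Of 8 neutrophil markers, 4 could be tested, with a median of -0.14 and sums of 7.58 to 13.8 CPM in sgCtrl livers and 8.79 to 12.3 CPM in the others. Of 6 adipocyte markers, 2 could be tested, with a median of -0.71, and the defining genes Adipoq, Lep, Plin1 and Retn, like Ly6g, Mpo, Camp and Ngp of neutrophils, did not pass the filter on low counts. In whole liver, a change in the number of cells of a type and a change in RNA per cell cannot be told apart, and the part of cell numbers in the values of the 48 genes was not tested.

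**Figure D3:**
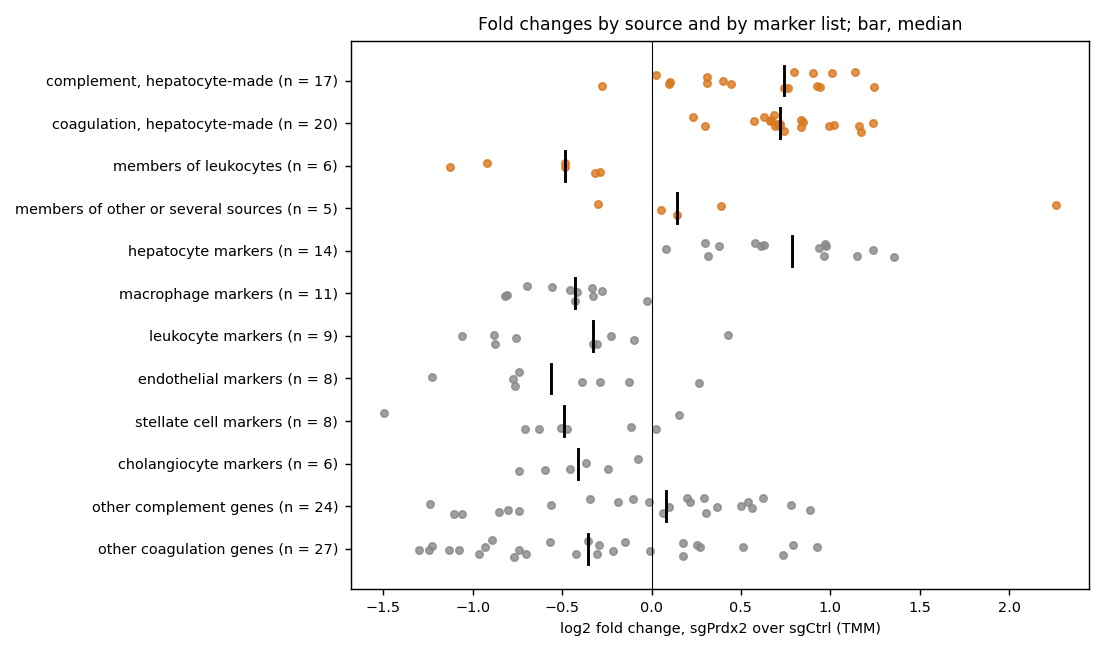
Log2 fold changes, sgPrdx2 over sgCtrl livers, of the 48 genes by the cells known to make them (orange) and of marker lists and further complement and coagulation genes (grey), with 1 point per gene and a black bar at the median. Under this TMM scaling, hepatocyte-made genes and hepatocyte markers lie to the right, with medians of 0.74, 0.72 and 0.78, and leukocyte genes and macrophage markers to the left, with medians of -0.48 and -0.43.

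With scaling to the 14 hepatocyte markers, 17 of the 48 genes had a log2 fold change above 0, against 40 under TMM. The median over all genes became -0.79 and that of the hepatocyte-made genes -0.038, with 16 above 0 and 21 below. None of the 48 genes then rose, against 0.44% of all genes, and 14 fell, against 64.6%, with 17 of the 48 at an unadjusted p under 0.05 in edgeR. Among hepatocyte-made genes, the largest remaining log2 fold changes were those of C8g at 0.47, Hrg at 0.45, F11 at 0.40, C8b at 0.40 and Klkb1 at 0.39. Of the hepatocyte-made genes, 5 fell on this scale, C3 at -0.67, Cfb at -0.67, C4bp at -0.73, Masp1 at -1.02 and C4b at -0.47. The leukocyte genes C1qa, C1qb, C1qc, Cfp, C3ar1 and C5ar1 fell too, as did Clu, F8 and Pros1, the last at -0.72. Masp2 and F7, which rose under TMM, were at -0.038 and -0.084.

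With scaling to 6 housekeeping genes, which themselves had a median log2 fold change of 0.43 under TMM, the median over all genes was -0.38 and that of the hepatocyte-made genes 0.34. Hrg and Klkb1 rose, against 0.411% of all genes, and C1qa, C1qb, C1qc, C3ar1 and C5ar1 fell, against 5.4%. Relative to the median of all genes, the hepatocyte-made genes stood 0.74 higher under TMM, 0.72 higher under the housekeeping scaling and 0.75 higher under the hepatocyte marker scaling. Each scaling multiplies all genes of a liver by the same factor, so this gap could hardly differ between scalings. Its likeness is no separate result. C3ar1 and C5ar1 fell under all 3 scalings.

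**Figure D4:**
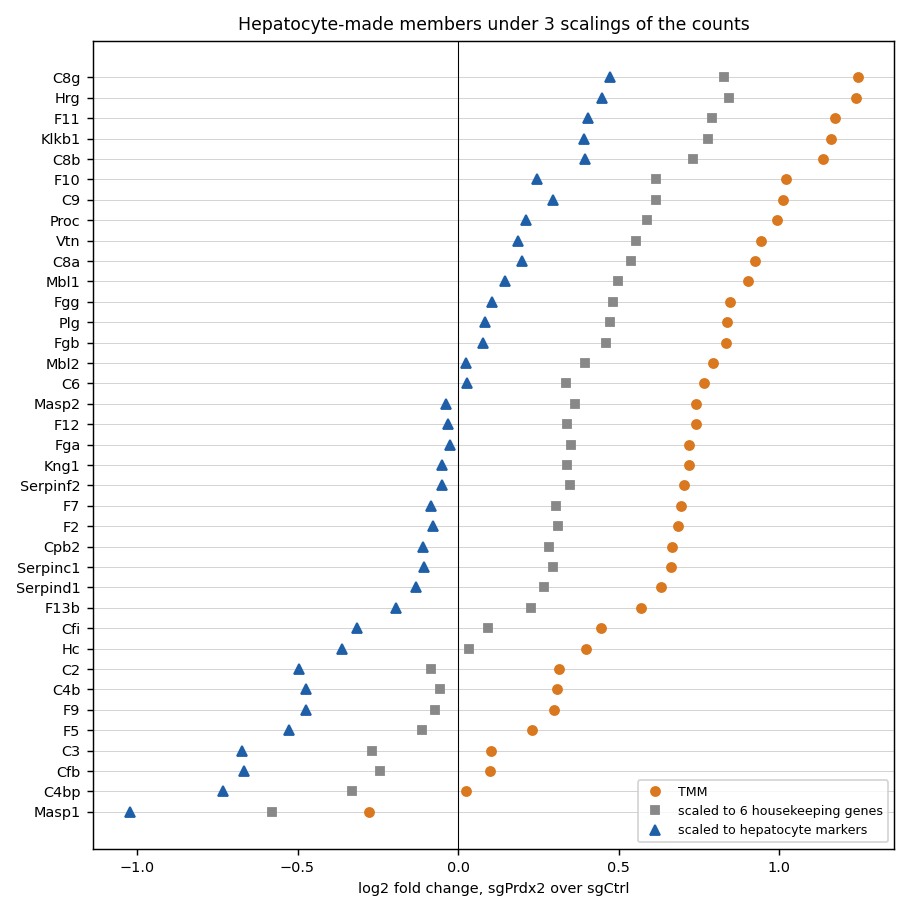
Log2 fold change, sgPrdx2 over sgCtrl livers, of the 37 hepatocyte-made genes with counts scaled by TMM (orange circles), to 6 housekeeping genes (grey squares) or to hepatocyte markers (blue triangles). The points shift left together, with medians from 0.72 to 0.34 and -0.038.

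The livers of each group were not alike. The sgCtrl liver 5.1 was the lowest of the 6 livers in 25 of the 37 hepatocyte-made genes, against 2 for liver 7.1, 7 for liver 7.2 and 3 for sgPrdx2 liver 3.2. Among sgPrdx2 livers, liver 3.2 was the highest of the 6 in 20 and liver 1.1 in 14 of the genes, and liver 1.3 was the lowest of its group in 23. The calls depended on which livers entered the fit. Without sgCtrl liver 5.1, sgCtrl liver 7.2, sgPrdx2 liver 1.1 or sgPrdx2 liver 1.3, no gene passed edgeR's test, neither among the 48 nor among all others, although 25 to 28 of the 48 genes had an unadjusted p under 0.05, as did 3114 to 3993 of all genes. Without sgCtrl liver 7.1, 6 rose and 2 fell, and without sgPrdx2 liver 3.2, 8 rose and 2 fell. DESeq2 called more genes, with 24 of the 48 higher, against 7.58% of all genes it could adjust, and 3 lower, against 5.78%.

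Other genes of both cascades, outside the 48, were read from the same fit under TMM scaling. Of 26 further complement genes, 24 were tested and 3 fell, against 1.54% of all genes, with a median log2 fold change of 0.08. The 2 chains of complement receptor 3, a phagocyte integrin, fell, Itgam with a log2 fold change of -1.24 ± 0.22 (SE, n = 3 and 3, adjusted p = 0.0394) and Itgb2 with one of -1.06 ± 0.13 (SE, n = 3 and 3, adjusted p = 0.0313). Cd93, a receptor of endothelial and myeloid cells, had a log2 fold change of -0.85 ± 0.14 (SE, n = 3 and 3, adjusted p = 0.0358). The groups did not overlap for any of these 3 genes. Itgb2 is also one of the general leukocyte markers above, so the 2 lists share this value.

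Of 28 further coagulation genes, 27 were tested. Of these, 1 rose and 6 fell, against 1.79% and 1.54% of all genes. The median was -0.35, below that of the plasma factors. Protein Z (Proz), a hepatocyte-made cofactor that restrains F10, rose, with a log2 fold change of 0.79 ± 0.15 (SE, n = 3 and 3, adjusted p = 0.0409). With housekeeping or hepatocyte marker scaling this call was lost. Those that fell included receptors and plasminogen activators. Thrombomodulin (Thbd), the endothelial receptor on which thrombin activates protein C, was at 14.4, 13.4 and 15.4 CPM in the sgCtrl livers and 6.08, 6.58 and 4.79 CPM in the sgPrdx2 livers. The groups were far apart, and the log2 fold change was -1.30 ± 0.16 (SE, n = 3 and 3, adjusted p = 0.0313). The endothelial protein C receptor (Procr) fell as well, with a log2 fold change of -1.13 and an adjusted p of 0.0358.

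The plasminogen activator genes followed the same direction, as urokinase (Plau) was at 29.7, 28.1 and 27.5 CPM in the sgCtrl livers and 13.5, 13.9 and 8.57 CPM in the sgPrdx2 livers, with a log2 fold change of -1.24 ± 0.19 (SE, n = 3 and 3, adjusted p = 0.0358). Tissue plasminogen activator (Plat) had a log2 fold change of -0.93, the urokinase receptor (Plaur) one of -1.07, and Serpine2, a serpin that inhibits thrombin and plasminogen activators in tissue, one of -0.77, with adjusted p of 0.0399, 0.0394 and 0.0396. Proc and Plg lay on the other side of 0 under TMM. The log2 fold change of Proc was 0.99, against -1.30 and -1.13 for Thbd and Procr, and that of Plg was 0.84, against those of Plau and Plat. Pros1, the cofactor of protein C, stood near 0, at 0.056. Of the 27 genes, 19 were below 0, and in 15 every sgPrdx2 liver was below every sgCtrl liver, against 17.5% of all genes. With scaling to hepatocyte markers, 22 of the 27 fell, against 64.6% of all genes, and 0 rose. On that scale Proc and Plg were at 0.21 and 0.084, and neither passed the test. Some of the 27 are genes of endothelial cells and leukocytes, whose markers had negative medians in the same livers. The part of those cells in these values was not tested.

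**Figure D5:**
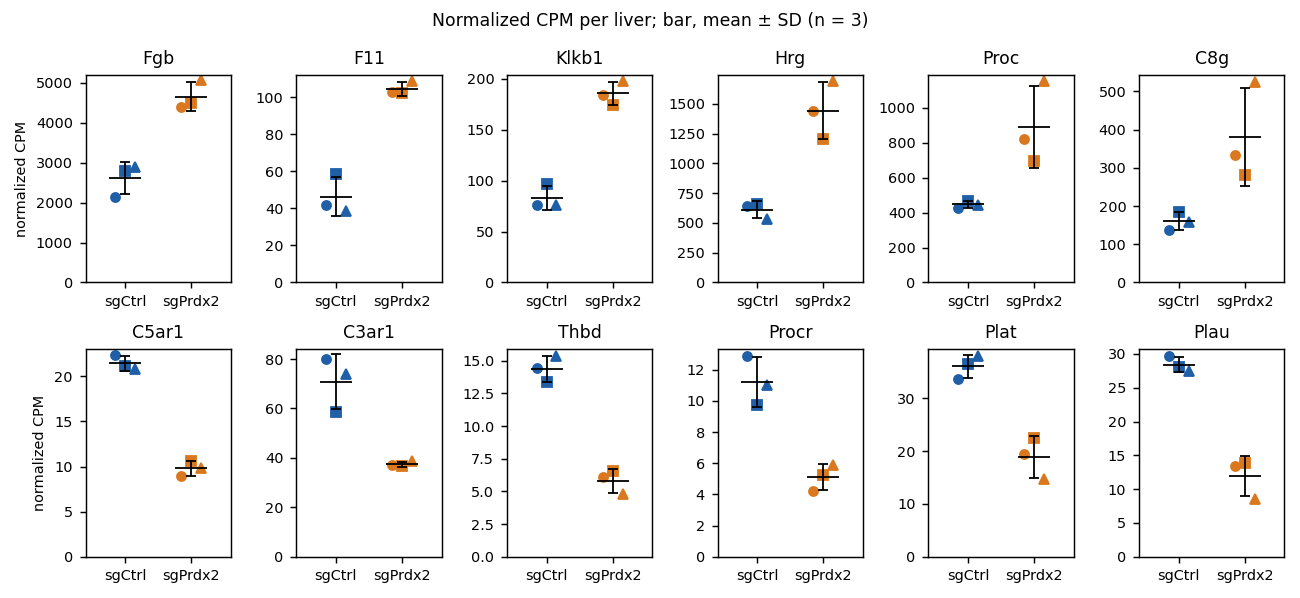
Normalized CPM in each liver, sgCtrl in blue and sgPrdx2 in orange, with the mean and SD (n = 3) in black and each axis starting at 0. The upper row holds 6 plasma proteins whose genes rose, and the lower row 6 genes of receptors and plasminogen activators that fell, and in all 12 panels the groups do not overlap.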

How the data were processed

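The authors deposited the counts of reads on each gene per liver, as whole numbers without normalization. Their processing notes name HISAT2, HTSeq, DESeq2 and GRCm38; versions, annotation and the handling of strand and ambiguous reads are not given in the sources used here. A second deposited table holds the authors' own comparison (mean normalized counts, fold changes, standard errors, test statistics and p-values) and was not used. Each liver is its own mouse, and all 15 pairs of libraries differed beyond sampling noise (chi-square per degree of freedom of at least 34.7).

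The test was edgeR 4.0.16 in R 4.3.3, with filterByExpr (minimum count 10), TMM, and the quasi-likelihood test over all 17032 genes kept, with all 6 livers and no covariate. Benjamini-Hochberg adjusted p under 0.05 was called. The SE was taken from the fold change and the F statistic, as |log2 fold change|/√F. The biological coefficient of variation was 0.213. Exon lengths, overlaps and shared 50-base stretches were read from the GENCODE annotation of GRCm38, which may differ from that of the authors.

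The genes, their classes, the marker lists and the tests were chosen with earlier results of these data known. Values in every liver are given for genes past the threshold and for the gene with the smallest p in each pathway step. Those of C3, Masp1 and C9, those of Thbd and Plau among the further genes, the sums and the promoters shown were chosen after values were seen. Of the further genes of both cascades, those past the threshold are named, except for a result that is not reported here. The analysis was repeated with RLE or upper-quartile factors, scaling to 6 housekeeping genes or to hepatocyte markers, DESeq2 1.42.0, 2 other count filters, 2 other thresholds and leaving out each liver in turn. Both tools were tested on simulated data, in which 200 genes differed 4-fold.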

Additional observations from a re-analysis of the deposited data

How the results depend on the processing

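RLE and upper-quartile normalization and a filter of at least 10 counts in every liver moved the counts of genes called among the 48, among complement genes and among coagulation genes by no more than 1.5 times, although Plg newly passed the threshold with both normalizations and Fgb no longer did with that filter. Of the 48 genes, 9 rose in the main analysis, 2 with housekeeping scaling, 0 with hepatocyte marker scaling, 16 without a filter on low counts, 24 with DESeq2, 0 at an adjusted p under 0.01 and 23 under 0.1. In place of 2, 5 fell with housekeeping scaling, 14 with hepatocyte marker scaling and 0 under 0.01. Of the complement genes that rose, 2 in the main analysis, there were 0 with either scaling, 6 without a filter and 7 with DESeq2, and those that fell numbered 5 and 12 with the housekeeping and hepatocyte marker scalings. Coagulation genes that rose, 7 in the main analysis, numbered 2 with housekeeping scaling, 0 with hepatocyte marker scaling and 17 with DESeq2, and 2 fell with hepatocyte marker scaling. Leaving out each liver in turn gave 0 to 8 genes that rose and 0 to 2 that fell (complement, 0 to 3 and 0 to 2, coagulation, 0 to 6 that rose). Fewer livers enter those fits.

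The median log2 fold change of complement genes was -0.030 with housekeeping and -0.43 with hepatocyte marker scaling, that of coagulation genes 0.34 and -0.050, that of hepatocyte-made genes 0.34 and -0.038, and that of leukocyte genes -0.86 and -1.26. Hepatocyte marker scaling shifted the genes down together, since the markers themselves had a median log2 fold change of 0.78 under TMM. The sign changed in 23 of the 48. In 8 of these the threshold was passed under TMM or under this scaling, C4b (-0.47), Masp2 (-0.038), C3 (-0.67), Cfb (-0.67), C4bp (-0.73), Clu (-0.63), F7 (-0.084) and Pros1 (-0.72), and in the other 15 under neither. For single genes over all alternatives, 479 of 623 values kept their direction and side of the threshold, 37 newly passed it and 66 no longer did with the direction kept, and 41 changed sign, 23 of them with hepatocyte marker and 10 with housekeeping scaling. Cfd was not tested with the filter of at least 10 counts in every liver. No paired analysis was possible because the groups share no replicate number. With 3 livers a group and a filter at 10 counts, only Cfd was too scarce for a fold change.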
